A study of Mus musculus with 12 samples.

Results

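Plekhg6, Spata45, Rflna and Shh are 4 genes that were chosen by their rise in MIN6 cells after 16 or 24 hr of miR-184 induction, out of 9493 named genes that could be tested. They are read by 5 probes of the array, 1 each for Plekhg6, Spata45 and Rflna and 2 for Shh, and all 5 passed the filter on dim probes. The rise that chose them is described below without a test. MIN6 cells are an insulin-secreting line from a mouse β-cell tumour. Total RNA was hybridized to 12 arrays (Illumina MouseWG-6 v2) in 6 groups of 2, whose replicates the labels call biological. The untransfected control received lipofectamine and 1 µg/ml doxycycline but no plasmid. The transfected control received lipofectamine with the rtTA transactivator plasmid and the tetO-184 plasmid, from which doxycycline switches on miR-184, and no doxycycline. The 4 induced groups received both plasmids and 1 µg/ml doxycycline for 16, 24, 48 or 72 hr. The 2 controls thus differ from each other in plasmids and in doxycycline at once, the labels give neither a harvest time, and only the transfected control lacks the drug. The plasmids entered cells by transient transfection, so a group holds cells that took them up and cells that did not.

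The 3p arm of miR-184 is shown because every induced group was made to express this miRNA, and the labels do not say which mature arm the plasmid yields.
mmu-miR-184-3p: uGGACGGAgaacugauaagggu
The capitals mark the seed, bases 2 to 8, with which a miRNA pairs to its target mRNAs. The sequence is that of RefSeq, with the mature arm at chr9:89802263-89802284 on the minus strand of GRCm38.p6. The probe annotation names none for miR-184, and its own level is not measured here.

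The 4 genes have no common pathway. Shh, Sonic hedgehog, is a secreted ligand that binds the receptor Patched, which frees Smoothened to activate the Gli transcription factors, and in the mouse embryo it is kept out of the endoderm that forms the pancreatic buds. Plekhg6 belongs to the Plekhg family of guanine nucleotide exchange factors. Rflna, refilin A, binds filamin A, an actin cross-linker, and organizes actin bundles. Spata45 carries the name of a group of genes associated with spermatogenesis.

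The detection p of a probe is the share of negative control probes that were brighter, and it was under 0.01 for 15243 to 16737 of 45281 probes per array. Values are given as log2 signal after background correction and quantile normalization. Of 10 β-cell markers with a probe, 9 were detected on all 12 arrays, Ins2 and Pdx1 among them, and Pcsk1 was detected on none. No listed marker of acinar cells, fibroblasts, leukocytes or endothelium was detected on any array. Gcg and Ppy, hormone genes of other islet cells, were detected on all 12, while Sst was detected on none and Ghrl on 1. Of the duct markers, Krt7 was detected on all 12, and Krt19 and Cftr on none. The summed level of the 4 markers of other islet cells lay between 14.06 and 14.37 on the control arrays, between 14.01 and 14.11 at 16 and 24 hr, between 13.11 and 13.76 at 48 hr and between 11.90 and 12.88 at 72 hr. Most of this sum is Gcg, which ranged from 11.79 to 14.34 over the arrays, where Ppy ranged from 5.95 to 8.36. Arrays of 1 slide, which holds 1 array of each group, deviated together from the group means (median correlation 0.434). Each test was therefore also run with the slide as a block, and that p is printed where the call changes.

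By mean, Plekhg6 was highest in the untransfected control, near it at 16 and 24 hr, and low in the transfected control and at 72 hr. Its log2 signal on slides 1 and 2 was 8.55 and 8.94 in the untransfected control and 7.13 and 8.07 in the transfected control. It was 8.20 and 8.95 at 16 hr, 8.36 and 9.02 at 24 hr, 8.32 and 8.05 at 48 hr, and 7.90 and 6.40 at 72 hr. The lowest of the 12 arrays was thus the slide 2 array at 72 hr, and the next lowest was the slide 1 array of the transfected control. Ordered by mean, the groups ran from 72 hr (7.15 ± 1.06, SD, n = 2) over the transfected control (7.60 ± 0.66), 48 hr (8.18 ± 0.19), 16 hr (8.57 ± 0.54) and 24 hr (8.69 ± 0.47) to the untransfected control (8.74 ± 0.27). Every neighbour in this order overlapped with the next. In bulk RNA, less RNA per cell and fewer cells that express a gene cannot be told apart.

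After normalization, Spata45 was higher on every induced array than on any control array. On slides 1 and 2 it was 5.74 and 6.44 in the untransfected control and 5.15 and 6.14 in the transfected control, and the slide 1 array of each control was not well above background. It was 6.50 and 7.13 at 16 hr, 6.79 and 7.19 at 24 hr, 6.92 and 7.85 at 48 hr, and 7.24 and 6.86 at 72 hr. This separation of 8 induced from 4 control arrays was true of 0.783% of all features and of none of the other 3 genes. The choice used the transfected control and the 16 and 24 hr arrays, so it favoured this pattern and the share is no support. The margin was narrow, with 6.50 at 16 hr on slide 1 against 6.44 in the untransfected control on slide 2. These 2 arrays kept their order in the authors' normalized values (123.1 and 119.7). In the unnormalized signals they did not (133.9 and 165.8), and the slide 2 array at 72 hr (157.2) also lay below 165.8. By mean, the transfected control (5.65 ± 0.70, SD, n = 2) and the untransfected control (6.09 ± 0.49) came first and overlapped, and were followed by 16 hr (6.82 ± 0.44), 24 hr (6.99 ± 0.28), 72 hr (7.05 ± 0.27) and 48 hr (7.38 ± 0.66), which overlapped with their neighbours. The step from the untransfected control to 16 hr was the only one without overlap.

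Rflna was set apart by low signal in the transfected control alone. Its log2 signal on slides 1 and 2 was 11.86 and 11.99 in the untransfected control and 11.12 and 11.23 in the transfected control. It was 11.78 and 11.85 at 16 hr, 12.02 and 11.75 at 24 hr, 11.67 and 12.24 at 48 hr, and 12.20 and 12.04 at 72 hr. The 2 arrays of the transfected control lay below the 10 others, a pattern found in 0.867% of all features and in no other of the 4 genes. The choice used these 2 arrays, so it favoured this pattern and the share is no support. The means ran from 11.18 ± 0.08 (SD, n = 2) in the transfected control to 11.82 ± 0.05 at 16 hr, 11.89 ± 0.20 at 24 hr, 11.92 ± 0.09 in the untransfected control, 11.96 ± 0.40 at 48 hr and 12.12 ± 0.12 at 72 hr. Beyond the transfected control, all neighbours overlapped.

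Shh was brightest in the untransfected control with both of its probes. With the brighter probe, which was used for the gene, the log2 signal on slides 1 and 2 was 8.82 and 9.88 in the untransfected control and 7.65 and 8.96 in the transfected control. It was 8.37 and 9.60 at 16 hr, 8.60 and 9.69 at 24 hr, 8.25 and 9.79 at 48 hr, and 8.67 and 9.21 at 72 hr. Slide 2 was higher than slide 1 in every group, by 0.54 to 1.55, and the groups overlapped throughout, while within each slide the transfected control was lowest and the untransfected control highest. The means ran from 8.30 ± 0.93 (SD, n = 2) in the transfected control over 8.94 ± 0.38 at 72 hr, 8.98 ± 0.87 at 16 hr, 9.02 ± 1.10 at 48 hr and 9.15 ± 0.77 at 24 hr to 9.35 ± 0.75 in the untransfected control.
The dimmer Shh probe read 6.56 and 7.68 in the untransfected control and 6.05 and 6.39 in the transfected control. It read 5.88 and 7.03 at 16 hr, 6.28 and 6.60 at 24 hr, 6.36 and 6.61 at 48 hr, and 6.24 and 6.21 at 72 hr. With this probe the transfected control had the lowest mean but was lowest on neither slide, and the untransfected control was highest on both, as with the brighter probe.

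**Figure D1:**
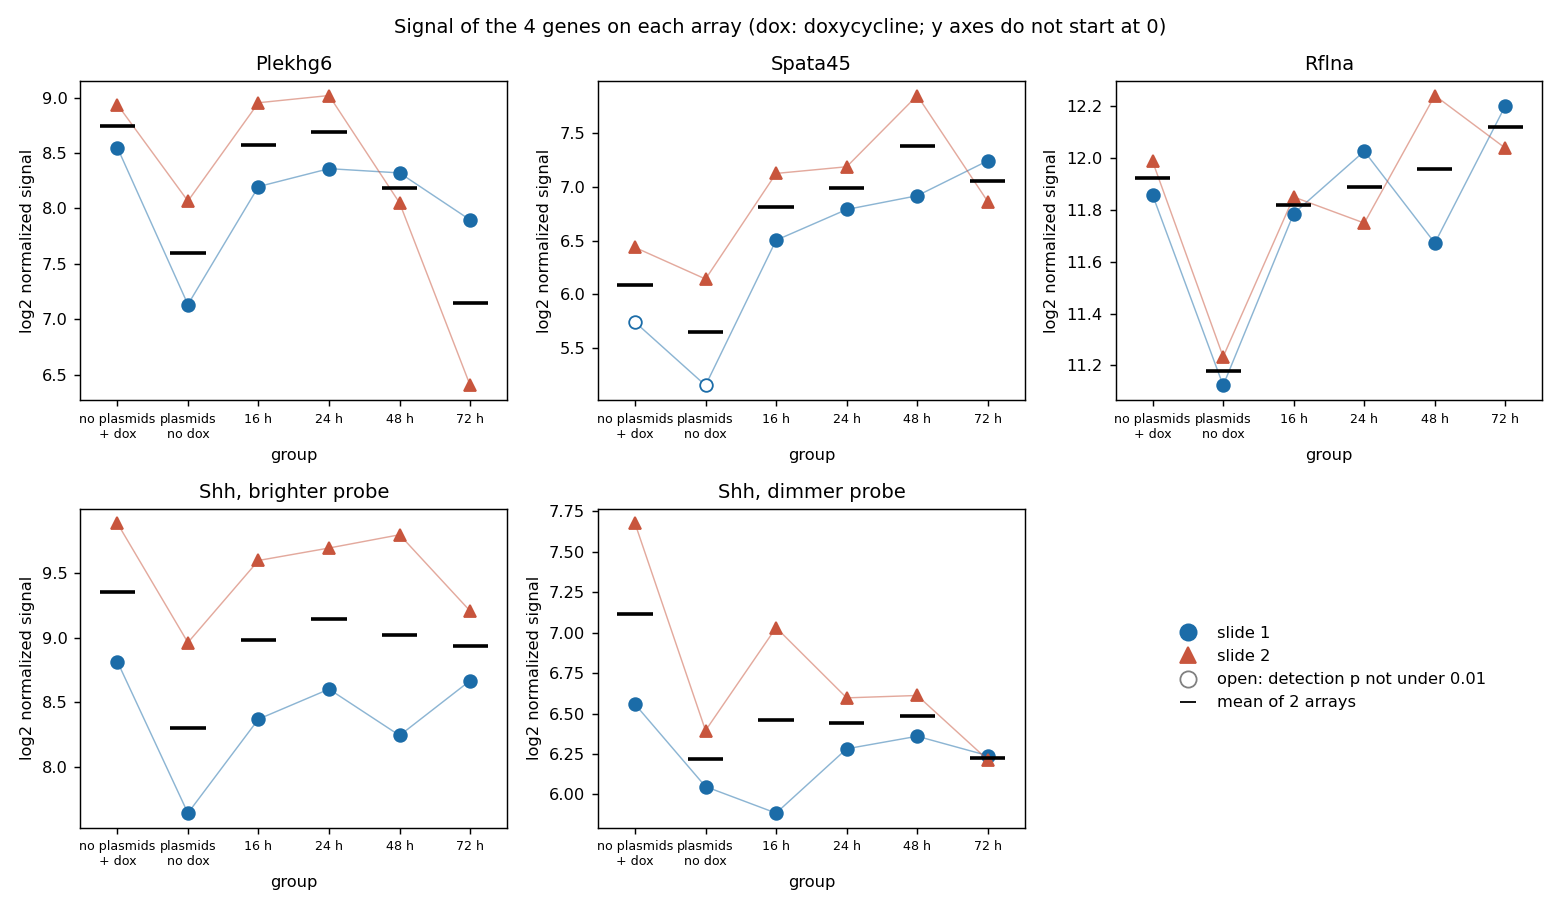
Log2 normalized signal (y axis, not starting at 0) of the 5 probes in the 6 groups (x axis), with circles for slide 1, triangles for slide 2 and bars for the mean of 2 arrays. Open circles mark a detection p of 0.01 or more, which for Spata45 are the slide 1 arrays of both controls; the transfected control sits lowest on both slides for Spata45, Rflna and the brighter Shh probe.

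The rise that chose the genes was seen against the transfected control, and it is given here as a description. At 16 hr the log2 differences were 0.98 for Plekhg6, 1.17 for Spata45, 0.64 for Rflna and 0.68 for Shh. At 24 hr they were 1.09, 1.34, 0.71 and 0.84 in the same order. Spata45 was detected on 1 of the 2 arrays of the transfected control, and in the authors' normalized values its differences were 0.66 and 0.78. The fitted values placed Spata45 at rank 3, Plekhg6 at rank 5, Shh at rank 16 and Rflna at rank 22 among 12001 features at 16 hr, counted from the highest. All 4 were higher on both slides at both times, as were 13.1% of all features. The dimmer Shh probe differed by 0.24 at 16 hr and 0.22 at 24 hr, and at 16 hr it was lower on slide 1 (−0.16) and higher on slide 2 (0.64).

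Against the untransfected control, which also received doxycycline, only Spata45 was higher on both slides at 16 and 24 hr. Its log2 differences were 0.73 at 16 hr (0.76 and 0.69 on slides 1 and 2) and 0.90 at 24 hr (1.05 and 0.75). In the authors' normalized values those of Spata45 were 0.43 and 0.54. The differences of Plekhg6 were −0.17 at 16 hr and −0.05 at 24 hr, and those of Rflna were −0.10 and −0.03. Shh differed by −0.37 at 16 hr and −0.20 at 24 hr with the brighter probe, and by −0.66 and −0.68 with the dimmer one. At all 4 times Shh lay below the untransfected control on both slides, as did 6.82% of all features. The comparisons with either control at these times use the same induced arrays.

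By mean, the 4 genes were higher in the untransfected than in the transfected control. Plekhg6 was higher in the untransfected than in the transfected control by 1.14 on the log2 scale (1.42 and 0.87 on slides 1 and 2), the highest difference among 12001 features. Shh was higher by 1.04 with the brighter probe (rank 4) and by 0.90 with the dimmer one. Rflna was higher by 0.74 (0.73 and 0.75, rank 22) and Spata45 by 0.44 (0.59 and 0.29, rank 191). For Spata45, the slide 1 array of neither control was well above background. Without 1 array, and with no block, its difference ranged from −0.05 to 0.94. That of Shh ranged from 0.39 to 1.70, that of Plekhg6 from 0.68 to 1.61 and that of Rflna from 0.68 to 0.81. All 4 were higher on both slides, as were 25.5% of all features. The transfected control was the lowest of the 6 groups on both slides for 3 of the 4, all but Plekhg6, and for 2.73% of all features. Since the choice used the transfected control, these values share its arrays and no test is given.

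At 48 and 72 hr Spata45, Rflna and Shh had means above the transfected control, and Plekhg6 had one at 48 hr only. Spata45 differed from it by 1.74 at 48 hr and 1.41 at 72 hr (1.07 and 0.82 in the authors' normalized values). Rflna differed by 0.78 and 0.94. Shh differed by 0.72 at 48 hr (0.60 and 0.83 on slides 1 and 2) and by 0.63 at 72 hr (1.02 and 0.24). Plekhg6 differed by 0.59 at 48 hr (1.19 and −0.02) and by −0.45 at 72 hr, where the slides had opposite signs (0.76 and −1.66). Without 1 array, and with no block, the difference from the transfected control ranged for Shh from 0.02 to 1.34 at 16 hr, 0.18 to 1.50 at 24 hr, −0.06 to 1.49 at 48 hr and −0.03 to 1.29 at 72 hr. That of Plekhg6 ranged from 0.51 to 1.44 at 16 hr, 0.62 to 1.56 at 24 hr, 0.12 to 1.05 at 48 hr and −1.20 to 0.30 at 72 hr. Spata45 was between 0.67 and 2.23 and Rflna between 0.49 and 1.06 at the 4 times.

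**Figure D2:**
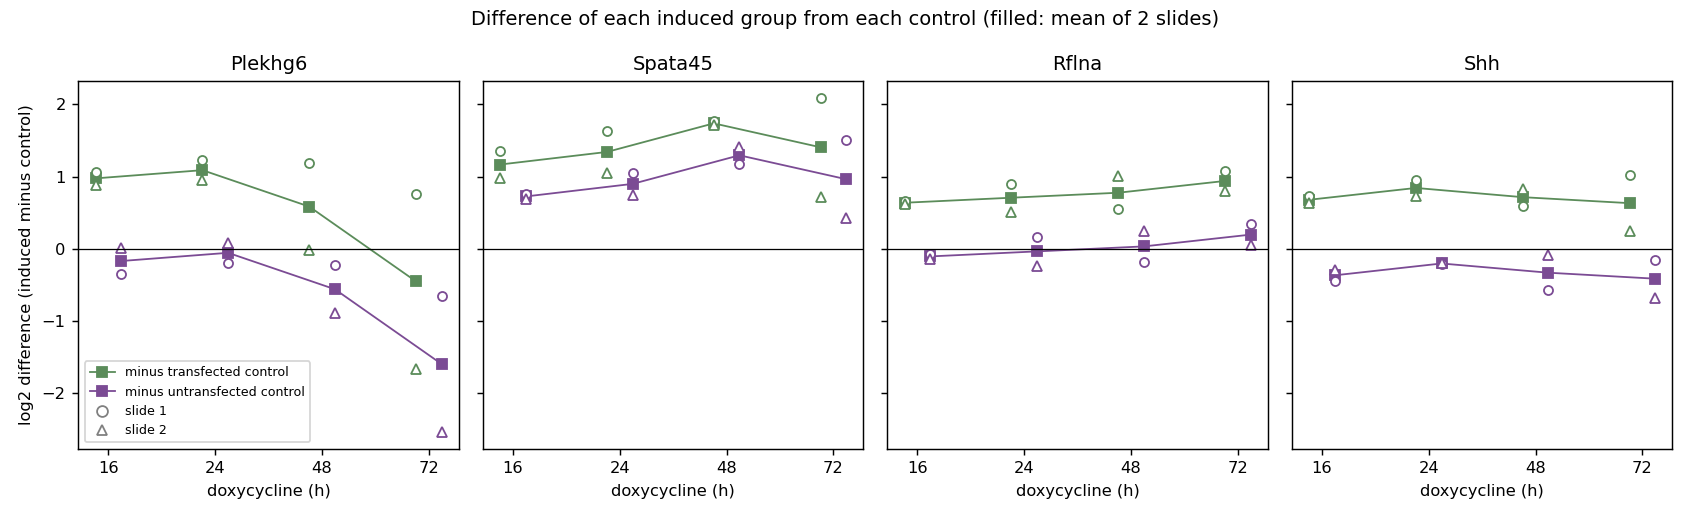
Log2 difference of each induced group (x axis, hours of doxycycline, spaced evenly) from the transfected control (green) and from the untransfected control (purple), with filled squares for the mean of 2 slides and open symbols for each slide. Spata45 lies above both controls at every time, the means of Rflna and Shh lie above the transfected control but between −0.41 and 0.20 against the untransfected control, and Plekhg6 is at −1.59 against the untransfected control at 72 hr.

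Whether the 4 genes differed from the untransfected control later on was tested at 48 and 72 hr, by comparing groups that the choice did not use. Spata45 was higher at both times and Plekhg6 lower at 72 hr, and over all arrays each passed the test only with the slide as a block. The test was a moderated test in limma over all 12001 features with Benjamini-Hochberg adjustment, and a call is an adjusted p under 0.05.

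At 72 hr the log2 difference of Plekhg6 from the untransfected control was −1.59 (SE 0.46, adjusted p = 0.0577 in limma, and 0.0218 with the slide as a block). It was −0.65 on slide 1 and −2.53 on slide 2, so its size rests largely on the slide 2 array. Spata45 differed by 0.96 (SE 0.40, adjusted p = 0.157 in limma, and 0.028 with the block), or 1.50 and 0.43 on the slides. Rflna differed by 0.20 (95% interval −0.19 to 0.59, adjusted p = 0.515 in limma). The difference of Shh was −0.41 (95% interval −1.76 to 0.94, adjusted p = 0.715 in limma, and 0.158 with the block). The dimmer Shh probe, tested among all kept probes, differed by −0.89 (adjusted p = 0.181 in limma, and 0.0337 with the block). Of the 4 genes, 0 were called without the block, where 7.11% of all features were, and 2 with it, where 20.4% were. The summed level of the markers of other islet cells, most of it Gcg, was lower on the 72 hr arrays, as given above. Its part in these values was not tested.
Leaving out 1 array moved these calls. With the block, Plekhg6 was no longer called without the slide 1 (adjusted p = 0.0788) or the slide 2 array (0.172) of the untransfected control or the slide 2 array at 72 hr (0.229), and without the slide 1 array at 72 hr it was called also in the fit that has no block (0.0121). Of the 4 blocked fits that each leave out 1 array, Spata45 at 72 hr was called in the one without the slide 2 array of that time (0.00789), and Shh in the one without the slide 1 array (−0.77, adjusted p = 0.0122 in limma). In the authors' normalized values Spata45 differed by 0.59 at 72 hr and 0.84 at 48 hr and was called at both times with the block.

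At 48 hr Spata45 differed from the untransfected control by 1.29 (SE 0.40, adjusted p = 0.299 in limma, and 0.0438 with the block), and by 1.18 and 1.41 on the slides. Plekhg6 differed by −0.56 (95% interval −1.57 to 0.45, adjusted p = 0.657 in limma). Rflna differed by 0.03 (−0.36 to 0.42) and Shh by −0.33 (−1.68 to 1.02). Without the block 0 of the 4 were called and 0% of all features, although 1426 features had an unadjusted p under 0.05 in limma, Spata45 among them. With the block 1 was called, Spata45, where 1.63% of all features were. That call was lost without the slide 1 (adjusted p = 0.226) or the slide 2 array (0.249) of the untransfected control or the slide 2 array at 48 hr (0.417), and was kept without the slide 1 array (0.0161).

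Between 48 and 72 hr Plekhg6 was lower at the later time on both slides (−0.42 and −1.65) without passing the test over all features (−1.04, SE 0.46, adjusted p = 0.937 in limma, and 0.532 with the block). Spata45 differed by −0.33, Rflna by 0.16 and Shh by −0.08, each with opposite signs on the slides. In this comparison 0 of the 4 genes and 0% of all features were called, with or without the block, and 502 and 1113 features had an unadjusted p under 0.05 in limma. Without the slide 1 array at 72 hr, the block called Plekhg6 (−2.03, adjusted p = 0.00363).

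The patterns of the 4 genes over the arrays were compared with each other after each slide was centred on its mean. Over 12 arrays, which share slides, Rflna and the brighter Shh probe had a Pearson correlation of 0.81 and a Spearman correlation of 0.67. Rflna and Spata45 had 0.75 and 0.58. Without the 2 arrays of the transfected control, these Pearson correlations were 0.34 and 0.40. Plekhg6 and Shh had a Pearson correlation of 0.62 over 12 arrays and 0.61 without them, and a Spearman correlation of 0.45 and 0.27. Plekhg6 and Rflna had Pearson correlations of 0.11 and −0.42, and Spearman correlations of −0.15 and −0.60. The 2 probes of Shh had a Pearson correlation of 0.58 with each other over 12 arrays. With the dimmer one, Rflna had a Pearson correlation of 0.24 over 12 arrays and −0.08 without the transfected control. Spata45 had −0.06 and −0.42 with it, and Plekhg6 had 0.65 and 0.67.
Of all other named genes, those most like Plekhg6 by this measure were Scnn1b, a subunit of the epithelial sodium channel (0.97), Zdhhc14, a palmitoyltransferase (0.96), and Elapor1 (0.95). Those most like Spata45 were Klhl3, an adaptor of a cullin ubiquitin ligase (0.96), Bcl2l1, an inhibitor of apoptosis (0.92), and Rap1gap, which switches off the GTPase Rap1 (0.91). Those most like Rflna were Gnptg, a subunit of the enzyme that tags lysosomal proteins (0.89), Rnf220, a ubiquitin ligase (0.87), and 3110021A11Rik (0.87). For the brighter Shh probe they were Tmc7 (0.88), Mapre2, which binds microtubule ends (0.83), and Rflna itself (0.81), a value that the choice favoured. All of these genes were detected on 12 arrays.

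The pathways around the genes were read from 2 lists. Of 27 genes of the hedgehog pathway beside Shh, 25 had a probe and 8 were bright enough to be tested. The ligands Ihh and Dhh, the transducer Smo and the transcription factors Gli1, Gli2 and Gli3 did not pass the filter on dim probes. At 72 hr, against the untransfected control, 1 of the 8 was higher and 1 lower, where 7.11% of all features were called, with a median log2 difference of 0.36 beside 0.00 over all features. The higher one was Hhip, a membrane protein that binds and sequesters hedgehog ligands. Its log2 signal was 6.92 and 7.85 at 72 hr, while it was not well above background on the 2 arrays of either control, at 16 or 24 hr, or on the slide 1 array at 48 hr, and it was 7.41 on the slide 2 array at 48 hr. Hhip was thus at least 2.97-fold higher at 72 hr than in the untransfected control (adjusted p = 0.0393 in limma). The bound sets the mean at 72 hr against the lowest signal that counted as detected on each control array. On slide 1 alone, 6.92 stood against 5.79, and on slide 2, 7.85 against 5.84. Hhip passed the filter on dim probes only through 1 array at 48 hr and the 2 at 72 hr. Its calls against either control, in every fit given here, and its part in each count of list genes called therefore depend on its being high there. With the bound in place of its fitted value, the list median stayed at 0.36.
Stk36, a kinase linked to Gli proteins, was lower at 72 hr by 0.80 (SE 0.21, adjusted p = 0.0456 in limma), with 7.04 and 7.03 against 7.83 and 7.84 in the untransfected control. Gsk3b, a kinase that marks Gli proteins for processing, differed by 0.36 (adjusted p = 0.173 in limma). Ptch1, the receptor of Shh and a common target of the pathway, read 7.68 and 8.02 at 72 hr against 7.32 and 7.50, and did not pass the test (0.44, SE 0.24, adjusted p = 0.271 in limma). Against the transfected control at 72 hr, where 5.48% of all features were called, Hhip was called higher (at least 2.74-fold, adjusted p = 0.0397 in limma) and Stk36 was not (−0.69, adjusted p = 0.0728). With the block, which called 19.2% of all features, Stk36 passed too (0.0243).

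Of 15 filamins and actin cross-linkers, 14 had a probe and 5 could be tested. Their median was −0.25 at 72 hr against the untransfected control, beside 0.00 over all features. Without the block 0 of the 5 were called in limma, where 7.11% of all features were. Of the 5, 1 had an unadjusted p under 0.05 in limma, as had 3162 of all 12001 features. It was Actn4, which encodes an α-actinin. With the block, where 20.4% of all features were called, Actn4 was lower (−0.45, SE 0.14, adjusted p = 0.0371 in limma). Flna, the filamin that refilins bind, differed by −0.25 (adjusted p = 0.493 in limma).
Without either array of the untransfected control or the slide 2 array at 72 hr, 0 genes of the 2 lists were called in the fit that has no block. Without the slide 1 array at 72 hr, Hhip (adjusted p = 0.0299 in limma) and Actn4 (−0.71, adjusted p = 0.0364) were called and Stk36 was not (adjusted p = 0.0655), so the call of Stk36 was lost in all 4 of these fits.

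**Figure D3:**
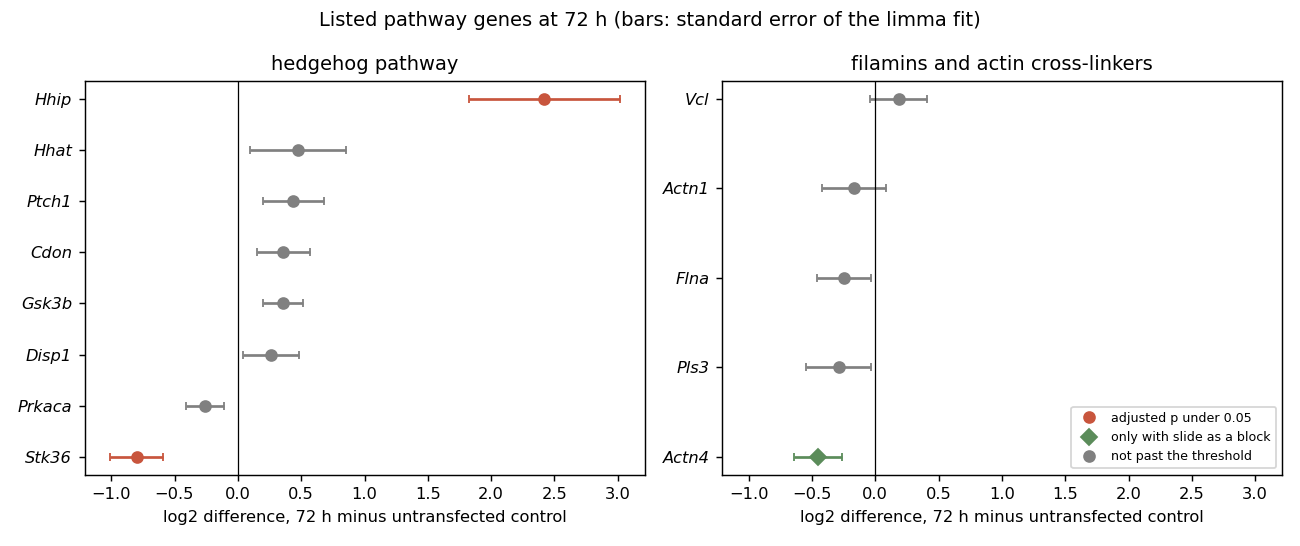
Log2 difference between 72 hr and the untransfected control (x axis) for the 13 tested genes of the 2 lists (y axis), with bars for the standard error of the limma fit. Hhip lies to the right and Stk36 to the left in red, and all others but Actn4 are grey. Actn4, which over all arrays was called only with the slide as a block, is a green diamond. The point of Hhip is the fitted value, of which the text gives a lower bound. Hhip passed the filter on dim probes only through arrays at 48 and 72 hr.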

How the data were processed

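The authors deposited unnormalized bead-averaged signal intensities, each with a detection p-value, and a second set of intensities that were normalized with lumi (version not given in the sources used here). The second set, with a median of 70.22 on each array, served as an alternative. With neqc (limma 3.58.1, R 4.3.3), the unnormalized intensities were corrected for background, quantile normalized and put on a log2 scale (offset 16). A probe was kept if its detection p was under 0.01 on 2 or more arrays (17556 probes), and the brightest probe stood for each gene. This left 12001 features, 9493 of them named genes.

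The 6 group means were fitted in limma with a variance trend and 6 residual degrees of freedom. A replicate number marks a slide, and the residuals of same-numbered arrays correlated in all 15 pairs of groups (0.207 to 0.628), so the numbers pair the arrays. The slide as a replicate block left 5 degrees of freedom. The 4 genes and the 2 lists were chosen with earlier results of these data known, and another list is not reported here. From each list up to 4 genes were taken, those called or else those with the smallest p at 72 hr, and others are named for their role. For each of the 4 genes, the 3 most correlated named genes are given. Alternatives were the block, another offset, uncorrected background, median scaling, the authors' values, other filters, all kept probes, fits of 2 groups, the methods' t-test and the omission of single arrays. The procedure was tested on simulated data for 72 hr against the untransfected control, with independent noise and no slide effect. Without the block it found 8.66% of log2 changes of 0.5, 60.3% of those of 1 and 97.0% of those of 2. Data without a slide effect cannot show how the block performs where slides differ. Python 3.11.15 with matplotlib 3.10.9 made the figures. For arrays, their number limits the precision.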

Additional observations from a re-analysis of the deposited data

Results flagged for a closer look

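Rflna had differences of opposite sign at 16 and 72 hr against the untransfected control, the same on both slides, though neither is shown to differ from 0. The log2 difference was −0.10 at 16 hr (−0.07 and −0.14 on slides 1 and 2, 95% interval −0.49 to 0.29). At 72 hr it was 0.20 (0.34 and 0.05, 95% interval −0.19 to 0.59) and did not pass the test (adjusted p = 0.515 in limma, and 0.429 with the block). Both comparisons share the control arrays, and the difference between them was not tested.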

How the results depend on the processing

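With the slide as a replicate block, 1 of the 4 genes was called at 48 hr and 2 at 72 hr against the untransfected control, in place of 0, and the same numbers were called when the block was joined, after the data were seen, with median scaling, no background correction, an offset of 50 or the authors' normalized values. The other alternatives with all arrays, the methods' t-test among them (0 of the 4 at its unadjusted threshold and after Benjamini-Hochberg in each comparison), changed no count of the 4. Without 1 array and without the block, the count was 0 to 1 at 72 hr and 0 in the other comparisons. With the block and without 1 array, also added after the data were seen, it was 0 to 1 at 48 hr, 0 to 2 at 72 hr and 0 to 1 between 48 and 72 hr. The count of list genes called at 72 hr was 2, or 3 with the block, and 0 to 2 without 1 array.

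Small differences changed sign when 1 array was left out. Without the block, Rflna at 48 hr ranged from −0.25 to 0.32 (−0.03 without the slide 1 untransfected control) and Shh from −1.10 to 0.44 (0.20 without the slide 2 untransfected control). Shh at 72 hr ranged from −0.95 to 0.12. Between 48 and 72 hr, Spata45 ranged from −0.80 to 0.14, Rflna from −0.12 to 0.45 and Shh from −0.86 to 0.69 (0.19 without the slide 1 array at 72 hr). With the block, Rflna at 48 hr was −0.00021 without the slide 1 untransfected control and −0.26 without the slide 2 array at 48 hr. Between 48 and 72 hr, Spata45 was 0.22 and Shh 0.27 without the slide 2 array at 72 hr, Rflna −0.13 without the slide 1 array at 48 hr, and Shh 0.17 without the slide 2 array at 48 hr. Fits without 1 array hold fewer arrays, and a lone array is assumed to vary like the other groups. No other tested value of the 4 genes changed direction.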
